A study of Mus musculus with 9 samples.

Results

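Skeletal muscle takes up long-chain fatty acids from the blood, stores part of them as triglyceride in lipid droplets, and burns them in mitochondria, and 36 genes of this route were followed here in mouse gastrocnemius, a calf muscle. The 36 were taken by gene symbol from a fixed list that was chosen with earlier results of these data known. It holds 6 genes of uptake, activation and lipid droplets, 19 genes of mitochondrial import and beta-oxidation, and 11 regulators. All 36 were above 0 in every library and were tested among 15372 genes. Poly(A)-enriched RNA had been sequenced on an Ion Torrent Proton, in 3 groups of 3 libraries. Vehicle was given to a wildtype and to an mdx group, and GTx-026, injected subcutaneously at 10 mg/kg, to a second mdx group. The labels give strain C57BL/6 for all groups, wildtype and mdx alike, and give no age, sex or length of treatment. The mdx mouse lacks dystrophin through a mutation of its gene, as patients with Duchenne muscular dystrophy do, and the study's title presents GTx-026 within work on agonists of the androgen receptor. Nothing in the labels ties a library to an animal, so the spread between libraries may be partly technical.

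Fatty acids enter the muscle fibre through carriers such as CD36 after lipoprotein lipase has freed them from circulating triglyceride, and are joined to coenzyme A before use. The carnitine shuttle carries the acyl group into the mitochondrion, where a cycle of dehydrogenase, hydratase and thiolase steps shortens it and passes electrons to the respiratory chain through the electron transfer flavoproteins. The nuclear receptors PPARα and PPARδ, the estrogen-related receptor α and the PGC-1 coactivators are known to drive these genes, most strongly in oxidative fibres, while malonyl-CoA made by acetyl-CoA carboxylase blocks the shuttle.

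Levels are given as CPM, scaled reads per M after rescaling each library by a trimmed mean of log ratios. Differences are limma's fitted log2 fold changes of CPM + 1 with their standard error (SE), and understate the change of genes at low level. A gene counts as called at a Benjamini-Hochberg adjusted p under 0.05 over all 15372 genes. Read totals implied by the step size of the low values ran from 25.1 to 38.0 M per library, summed over records. The dystrophin gene Dmd, whose transcript is still made in mdx muscle, was at 41.4, 60.0 and 51.0 CPM in wildtype libraries and between 11.4 and 21.7 CPM in the 6 mdx libraries, which did not overlap wildtype. Skeletal muscle markers summed to at least 102403 CPM in every library, so all 9 were muscle by content.

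A single library stood apart. Mdx vehicle library 1 had a median correlation of 0.945 with its own group, against 0.959 to 0.983 for the other 8, and lay at one end of the first principal component, which held 36.9% of the variance. All comparisons that use the mdx vehicle group are therefore given with and without it. In bulk muscle, fewer fibres or cells of a type and less RNA per cell cannot be told apart.

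Promoter sequence was read for every member that had a promoter window, as a description only. Its part in the levels was not tested. RefSeq (GRCm38.p6) held 32 windows of 250 bases before the start for 30 of the 36 members. On both strands, the nuclear receptor core motif AGGTCA was in 18.8% of these windows and in 14.0% of all 32851 mouse windows, and was found at Acadm, Acadvl, Cd36, Echs1, Plin5 and Ucp3. The estrogen-related receptor element TCAAGGTCA was in none (0.387% of all windows), and neither was the PPAR direct repeat, a pair of AGGTCA in the same direction with any 1 base between them (0.0335%); both contain the core motif. The NRF1 site, GCGC and TGCGC with any 1 base between them, was in 9.38% of member windows (3.74% of all), at Etfb, Etfdh and Ppara. The ETS site CCGGAAGT was also in 9.38%, or 3 of 32 windows (2.88% of all), at Cpt2, Slc25a20 and Tfam. Of the 250 bases, 236 in the Tfam window and 55 in the Echs1 window are annotated exon. Both exceed the limit of 30 exon bases set for printing a window. A match is a stretch of letters, not evidence of binding. Shown are 3 of the genes whose mdx vehicle libraries all lay below wildtype and whose window holds a match, printed 5′ to 3′ on the gene's own strand with the match in capitals. The Acadm window (chr3:153944644-153944893, minus strand) lies outside annotated genes, that of Cpt2 (chr4:107923590-107923839, minus strand) includes 21 bases of an annotated Cpt2 exon, and that of Cd36 (chr5:17835897-17836146, minus strand) lies in an intron of longer Cd36 transcripts.
Acadm: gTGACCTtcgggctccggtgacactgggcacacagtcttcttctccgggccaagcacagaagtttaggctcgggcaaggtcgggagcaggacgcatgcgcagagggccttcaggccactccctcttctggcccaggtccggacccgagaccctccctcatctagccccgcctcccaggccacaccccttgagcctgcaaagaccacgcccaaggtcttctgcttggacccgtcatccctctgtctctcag
Cpt2: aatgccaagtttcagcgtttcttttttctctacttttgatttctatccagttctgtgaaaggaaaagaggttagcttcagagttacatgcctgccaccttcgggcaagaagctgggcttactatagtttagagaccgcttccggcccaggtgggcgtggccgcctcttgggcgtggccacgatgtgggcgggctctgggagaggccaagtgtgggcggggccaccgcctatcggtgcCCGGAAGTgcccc
Cd36: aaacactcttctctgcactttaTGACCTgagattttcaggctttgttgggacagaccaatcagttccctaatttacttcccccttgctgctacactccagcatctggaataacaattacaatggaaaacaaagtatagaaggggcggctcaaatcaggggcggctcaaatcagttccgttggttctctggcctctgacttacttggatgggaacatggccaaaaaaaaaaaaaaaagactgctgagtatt

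In mdx muscle with vehicle, 35 of the 36 genes had a lower mean level than in wildtype muscle on the log2 scale, against 48.9% of all genes, but none passed the adjusted threshold. The uptake genes lay lowest, with a median log2 difference of −0.90, followed by the oxidation genes at −0.54 and the regulators at −0.34, beside 0.01 for all genes. The downward shift was not particular to these lists. All 35 oxidative phosphorylation genes (median −0.38) and all 18 tricarboxylic acid cycle genes (median −0.39) were lower too, and 31 and 16 of them without mdx vehicle library 1. Called genes made up 0.338% of all genes tested (52 of 15372), so a count of 0 among 36 members is close to that background. Unadjusted p was under 0.05 for 10 members, all lower, against 6.36% of all genes lower at that level; the lowest adjusted p among members was 0.338, for Acsl1. The size of the difference varied with the library. In mdx vehicle library 1, all 36 members lay below all 3 wildtype libraries (37% of all genes did), while in mdx vehicle libraries 2 and 3 this held for 10 (24.5%) and 23 (28.3%). Without library 1, 32 of 36 members were still lower, against 50.5% of all genes, with medians of −0.45 for uptake, −0.21 for oxidation and −0.23 for regulators; no member had an unadjusted p under 0.05 (4.27% of all genes were lower at that level), and called genes made up 0.364% of all genes. The count at unadjusted p under 0.05 also moved with other libraries, to 0 without wildtype library 3, 1 without wildtype library 2, 5 without GTx-026 library 2 and 22 without mdx vehicle library 2.

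**Figure D1:**
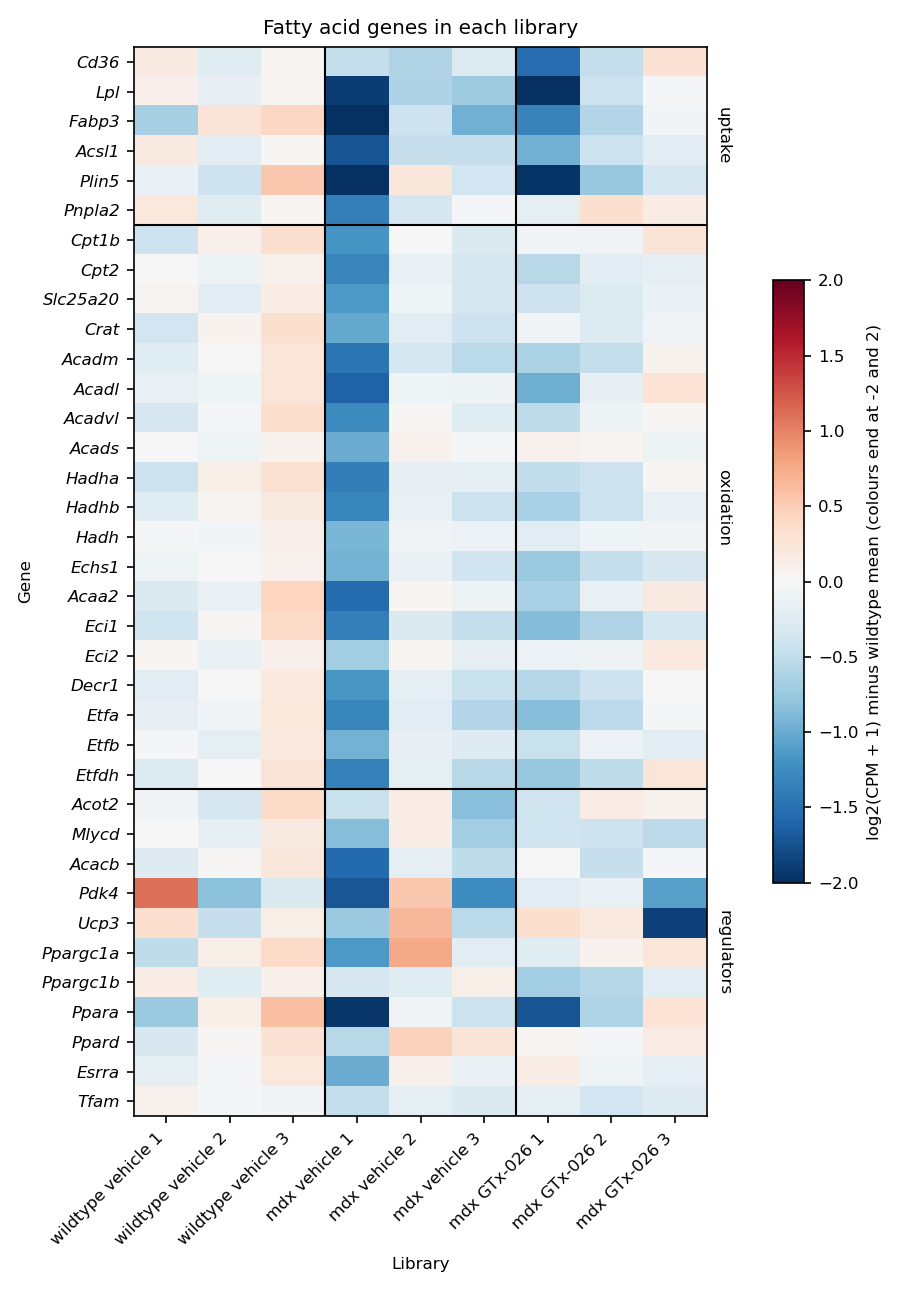
Each row is 1 of the 36 genes and each column 1 library; colour gives log2(CPM + 1) minus the mean of the 3 wildtype libraries, blue for lower and red for higher, with colours ending at −2 and 2. The column of mdx vehicle library 1 is blue for all 36 genes, and GTx-026 library 1 is dark for Cd36, Lpl, Plin5 and Ppara.

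In all, 9 members were lower in all 3 mdx vehicle libraries than in any wildtype library: Cd36, Lpl and Acsl1 of uptake, Cpt2, Acadm, Hadh, Echs1 and Etfa of oxidation, and Tfam of the regulators. Of all genes, 8.49% showed such a gap downward, and 12.6% did once library 1 was left out. Leaving library 1 out could not change the 9, since all 36 members lay below wildtype in it.

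Among the uptake genes, Lpl (lipoprotein lipase) measured 591, 494 and 572 CPM in wildtype libraries 1 to 3 and 146, 359.8 and 336 CPM in mdx vehicle. The highest mdx library was thus below the lowest wildtype one. Group means were 552 ± 51.5 and 281 ± 117 CPM (SD, n = 3), and the log2 difference of −1.08 (SE 0.51) had a limma adjusted p of 0.423; it was −0.66 (SE 0.50) without library 1. Fabp3, the fatty acid binding protein of heart and muscle, measured 279, 528 and 589 CPM in wildtype libraries and 63.1, 333 and 227 CPM in mdx vehicle. Its groups overlapped, because wildtype library 1 lay under mdx library 2, and its log2 difference of −1.39 (SE 0.58) shrank to −0.68 (SE 0.41) without mdx library 1. Fabp3 shares 29.2% of its 50-base words with the pseudogene Fabp3-ps1, so part of its reads may be shared. Cd36, the membrane carrier, measured 193, 144 and 178 CPM in wildtype libraries and 123, 112 and 141 CPM in mdx vehicle. Here library 1 was not the low one, and the log2 difference of −0.45 (SE 0.37) stayed at −0.43 without it. Acsl1, which joins long-chain fatty acids to coenzyme A, averaged 248 ± 33.6 CPM in wildtype muscle and, with vehicle in mdx, 144 ± 60.7 CPM (SD, n = 3), a log2 difference of −0.88 (SE 0.33) that became −0.46 without library 1.

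Plin5 coats lipid droplets at mitochondria and Pnpla2 is the triglyceride lipase that empties the droplets. Plin5 was a gene of low level, at 9.04, 7.28 and 15.0 CPM in wildtype libraries and 0.766, 11.9 and 7.46 CPM in mdx vehicle. Libraries 2 and 3 lay within the wildtype range and its log2 difference of −0.93 (SE 0.68) fell away to −0.07 without library 1. Pnpla2 measured 220.1, 162 and 195 CPM in wildtype libraries and 73.1, 152 and 187 CPM in mdx vehicle, a log2 difference of −0.58 (SE 0.31) with library 1 and −0.18 without it.

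The 19 oxidation genes had negative log2 differences throughout, from −0.78 for Acadm to −0.29 for Eci2, and 18 remained negative without library 1; the exception was Acads (short-chain acyl-CoA dehydrogenase) at 0.03. Acadm, the medium-chain acyl-CoA dehydrogenase, measured 265, 315 and 373 CPM in wildtype libraries and 113, 247 and 216 CPM in mdx vehicle, with no overlap between groups. Its log2 difference of −0.78 (SE 0.30, limma adjusted p = 0.343) became −0.44 (SE 0.23) without library 1. Echs1, the short-chain enoyl-CoA hydratase, was even within wildtype at 110.3, 117 and 125 CPM and was at 60.2, 107 and 88.7 CPM in mdx vehicle. That is a log2 difference of −0.49 (SE 0.20), or −0.26 without library 1. Eci1, an isomerase for unsaturated fatty acids, measured 93.5, 125 and 161 CPM in wildtype libraries and 47.5, 101 and 88.6 CPM in mdx vehicle, and its groups overlapped. Its log2 difference of −0.71 (SE 0.29) became −0.38 (SE 0.23) without library 1.

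Of the 4 carnitine shuttle genes, Cpt1b, the muscle form of the outer-membrane enzyme that sets the rate of entry, measured 119.8, 173 and 201 CPM in wildtype libraries and 70.5, 159 and 132 CPM in mdx vehicle. Mdx libraries 2 and 3 lay inside the wildtype range, and the log2 difference of −0.49 (SE 0.30) became −0.15 without library 1. Cpt1b shares 78.6% of its 50-base words with the overlapping annotated locus Gm44502, so its reads cannot be assigned to it alone. Cpt2, the inner-membrane partner, averaged 90.4 ± 5.52 CPM in wildtype, beside 62.6 ± 24.0 CPM in mdx vehicle; Slc25a20, the carnitine-acylcarnitine carrier, averaged 64.3 ± 8.22 and 46.3 ± 16.3 CPM (SD, n = 3). Crat, carnitine acetyltransferase, averaged 583 ± 138 and 402 ± 109.9 CPM. All 4 remained negative without library 1, between −0.31 and −0.15.

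Further along the route, Hadha and Hadhb, the 2 subunits of the mitochondrial trifunctional protein, had log2 differences of −0.58 and −0.63, and −0.19 and −0.29 without library 1. Acadl and Acadvl, the long-chain and very-long-chain dehydrogenases, moved from −0.60 and −0.50 to −0.09 and −0.11, and the thiolase Acaa2 moved from −0.54 to −0.035. Etfa, Etfb and Etfdh, which pass electrons on to ubiquinone, stood at −0.71, −0.45 and −0.70 and kept −0.41, −0.21 and −0.37 without library 1. Hadh was at −0.37 and the reductase Decr1 at −0.60, and without library 1 they were at −0.095 and −0.32. The long-chain dehydrogenases and the thiolase were thus near 0 without that library, as were Hadh, Acads and Eci2. Acadm, Etfa and Etfdh kept more than the list's median, as did Eci1, Decr1, Crat, Hadhb, Echs1 and Cpt2 (−0.38 for Eci1 to −0.25 for Cpt2). Reads of Etfb (43.8% of words shared with Gm45233), Acadvl (26.9% with Dvl2) and Hadhb (18.1% with Gm13910) are uncertain in part.

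The regulators were the most mixed of the lists. Acacb, which makes malonyl-CoA at the mitochondrion, measured 324, 394 and 452 CPM in wildtype libraries and 131, 339.9 and 271 CPM in mdx vehicle, a log2 difference of −0.75 (SE 0.32) or −0.35 (SE 0.21) without library 1. Mlycd, which removes malonyl-CoA, had a log2 difference of −0.46 or, without library 1, −0.27. Pdk4 is the kinase that shuts off pyruvate dehydrogenase when fat is burned, and is known to respond strongly to fasting. It was as uneven within groups as between them, at 621, 164 and 238 CPM in wildtype libraries and 88.1, 422 and 122 CPM in mdx vehicle. Ucp3, an uncoupling protein of muscle, behaved alike at 125, 72.1 and 108 against 58.9, 155 and 67.6 CPM. The thioesterase Acot2 averaged 11.7 ± 3.13 CPM in the wildtype group and 8.93 ± 3.47 CPM under mdx vehicle (SD, n = 3), and shares 24.5% of its words with Acot1.

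Among transcription factors and coactivators, Ppara measured 11.4, 21.7 and 30.4 CPM in wildtype libraries and 4.38, 18.6 and 14.3 CPM in mdx vehicle, with wide, overlapping groups. The log2 difference of Ppara was −0.82 (SE 0.60), and −0.26 (SE 0.54) without library 1. Ppargc1a (PGC-1α) measured 14.4, 22.8 and 27.6 CPM in wildtype libraries and 8.88, 35.95 and 18.0 CPM in mdx vehicle. Its log2 difference changed sign, from −0.20 (SE 0.42) to 0.27 (SE 0.33) without library 1, as that of Ucp3 did from −0.21 to 0.05. Ppargc1b (PGC-1β) was nearly level at 30.6, 23.1 and 29.6 CPM against 21.7, 23.2 and 29.9 CPM, a log2 difference of −0.15 (SE 0.18) that turned to 0.02 under the deposited scaling. Ppard was the 1 member with a positive log2 difference, 0.06 (SE 0.26), from 22.1, 28.1 and 34.1 CPM to 18.5, 38.5 and 33.3 CPM. Esrra, the estrogen-related receptor α, averaged 92.7 ± 13.6 CPM in wildtype, 76.3 ± 27.5 CPM in mdx vehicle, and was at −0.01 without library 1. Tfam, the mitochondrial DNA packaging factor, was the steadiest member: 41.0 ± 2.19 CPM in wildtype against 32.9 ± 3.34 CPM in mdx vehicle, a log2 difference of −0.31 (SE 0.12, limma adjusted p = 0.357) and −0.23 without library 1.

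**Figure D2:**
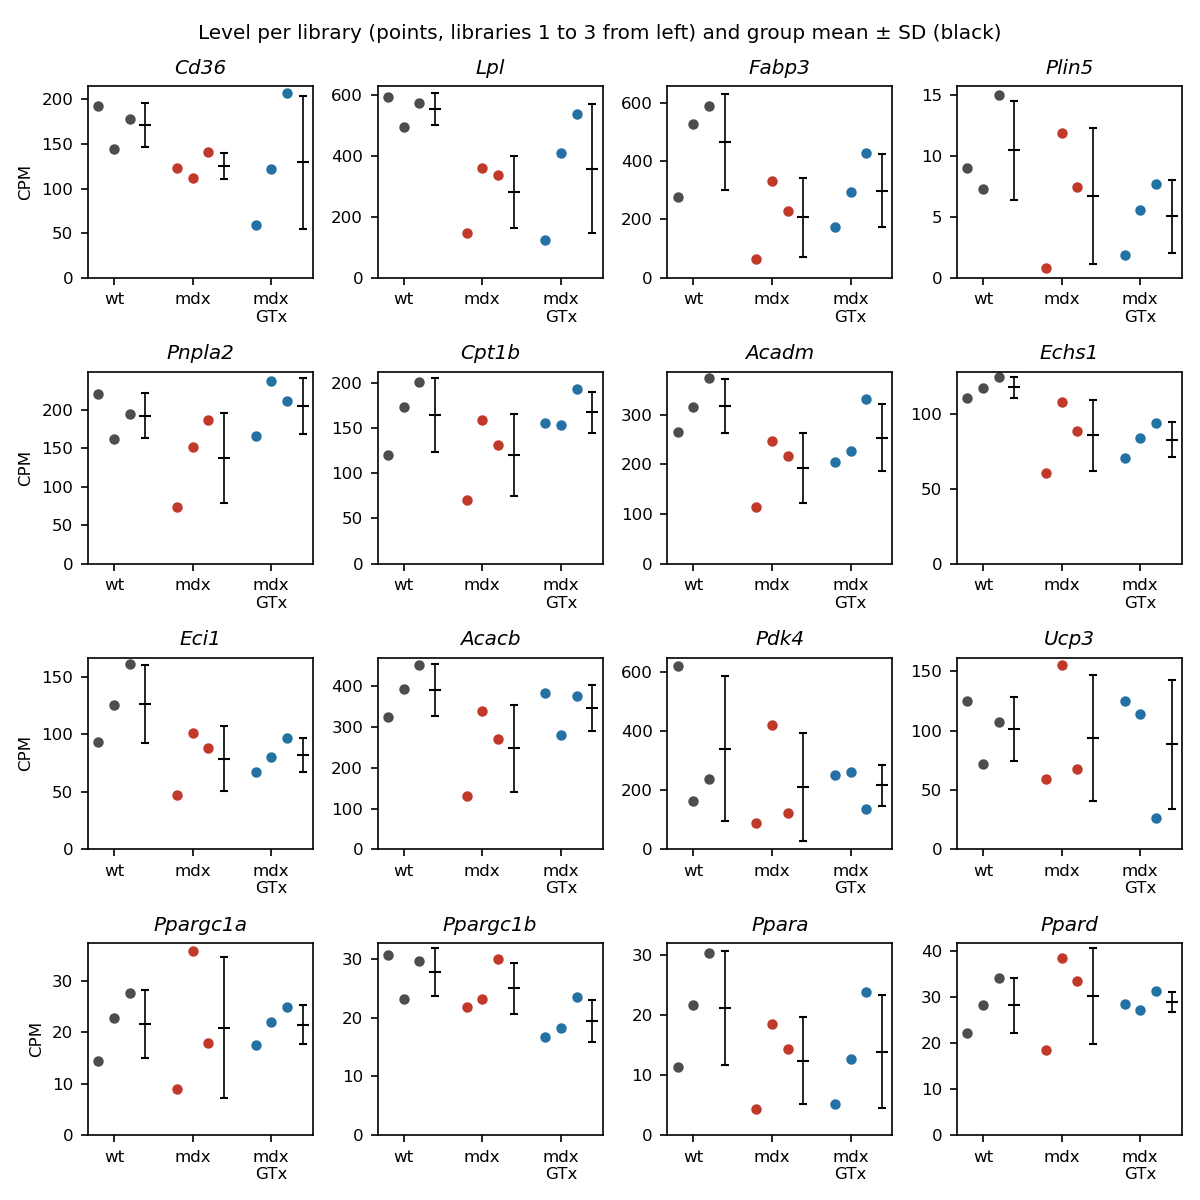
Points give CPM in libraries 1 to 3 of each group (wt, wildtype vehicle; mdx, mdx vehicle; mdx GTx, mdx GTx-026) for 16 genes, with the group mean ± SD (n = 3) in black and every axis starting at 0. Lpl and Acadm show mdx vehicle libraries wholly below wildtype, while Pdk4 and Ucp3 spread as widely within groups as between them.

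With GTx-026, 31 of the 36 genes had a higher mean log2 level than in mdx muscle with vehicle, against 51.1% of all genes, and the medians were 0.27 for uptake, 0.29 for oxidation and 0.13 for regulators. None was called (all limma adjusted p = 1.00 after rounding), none had an unadjusted p under 0.05, where 1.97% of all genes were higher, and none of the 36 had groups that did not overlap, where 3.67% of all genes lay wholly higher. Called genes were 0.013% of all genes, 2 of 15372. Of 35 oxidative phosphorylation genes 34 were also higher, as were all 18 tricarboxylic acid cycle genes. Without mdx vehicle library 1, 25 and 14 of these were higher. For the 36 members the direction depended on that library. Without it, 27 of the 36 lay lower with GTx-026, against 48% of all genes, with medians of −0.11 for uptake, −0.06 for oxidation and −0.17 for regulators; called genes were then 0.00651%. With library 1 of the GTx-026 group left out as well, a choice made after seeing the data, 23 members were higher and 13 lower. No difference between GTx-026 and vehicle in mdx muscle was therefore detectable for these genes with 3 libraries a group.

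**Figure D3:**
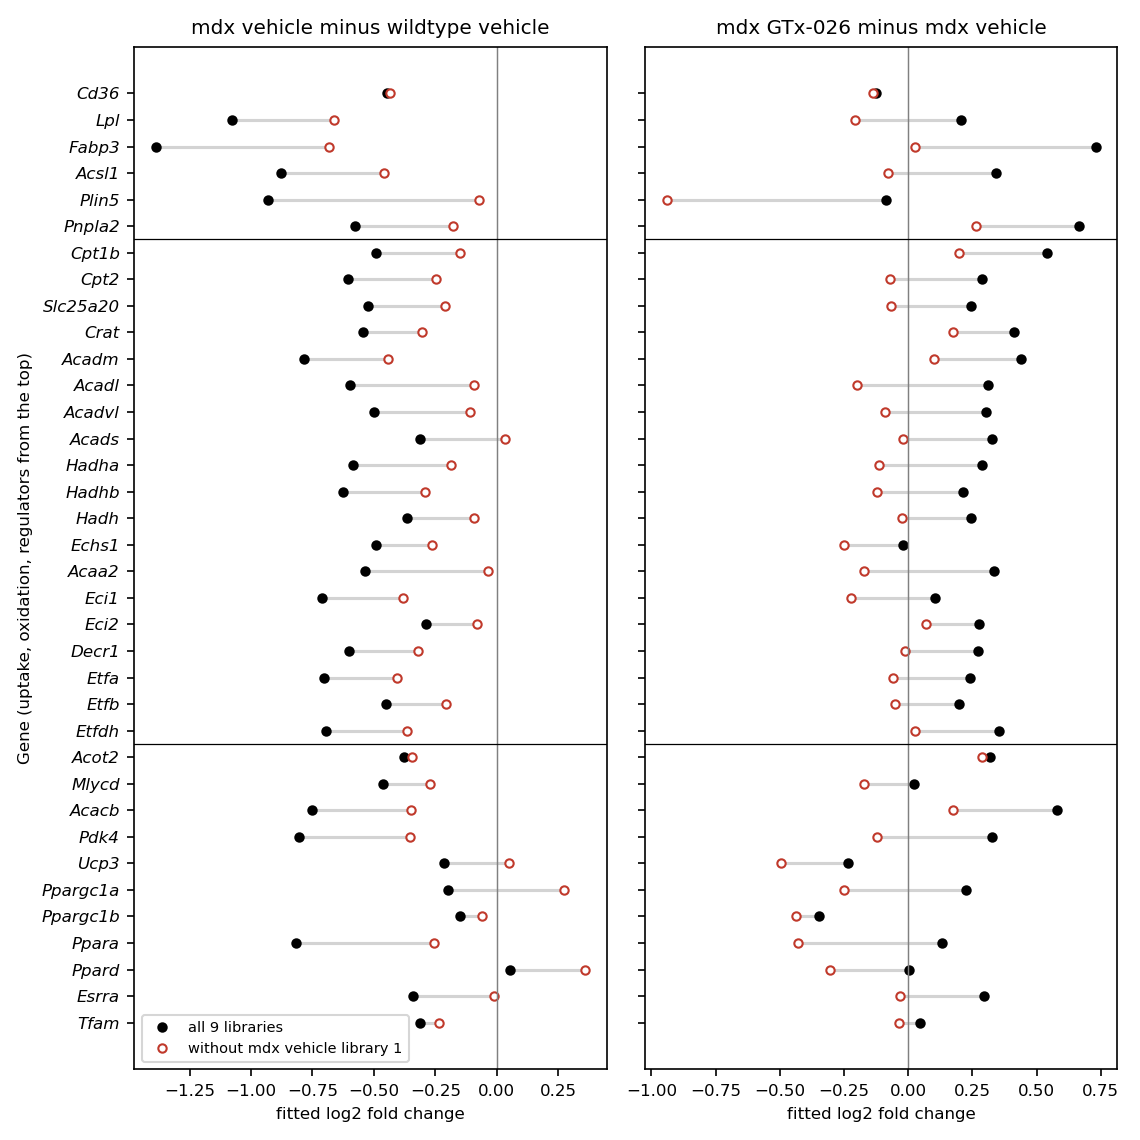
For each of the 36 genes, the fitted log2 fold change is shown with all 9 libraries (filled) and without mdx vehicle library 1 (open), for mdx vehicle against wildtype on the left and GTx-026 against mdx vehicle on the right. On the left most open points stay below 0 (32 of 36), and on the right most cross from above to below 0 (31 higher with all libraries, 9 without library 1).

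The largest positive differences were smaller without mdx vehicle library 1. Pnpla2, with 166, 237 and 212 CPM under GTx-026, had the lowest unadjusted p of this comparison (0.061) at a log2 difference of 0.66 (SE 0.31), and 0.27 (SE 0.20) without mdx library 1. Fabp3 reached 175, 295 and 427 CPM with GTx-026, a log2 difference of 0.73 (SE 0.58) that came to 0.03 (SE 0.41). Acacb, at 383, 281 and 375 CPM, was 0.58 (SE 0.32) higher and 0.18 (SE 0.21) without library 1. Cpt1b, at 155, 153 and 194 CPM, was 0.54 (SE 0.30) higher and then 0.20 (SE 0.22). These 4 kept a positive sign in both fits, as Crat, Acadm, Eci2, Etfdh and Acot2 did.

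Other members were lower under GTx-026 or split by library. Ppargc1b measured 16.6, 18.2 and 23.4 CPM, a log2 difference of −0.35 (SE 0.18) from mdx vehicle and −0.44 (SE 0.20) without library 1. GTx-026 library 1 stood low for droplet and uptake genes: Cd36 was at 58.6, 122 and 207 CPM, Lpl at 124, 409 and 536 CPM, and Plin5 at 1.83, 5.54 and 7.71 CPM. Ppara likewise ran from 5.26 through 12.7 to 23.9 CPM. Ucp3 had the reverse order, with 125, 114 and 26.3 CPM, and Pdk4 measured 251, 263 and 137 CPM. Ppard, at 28.4, 27.0 and 31.2 CPM, was level with mdx vehicle (log2 difference 0.0022, SE 0.26, and −0.06 under the deposited scaling), and once library 1 was left out its 3 GTx-026 libraries lay below the other 2 mdx ones, where 7.32% of all genes lay wholly lower.

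Set against wildtype muscle, GTx-026-treated mdx muscle was lower for 31 of the 36 genes (49.6% of all genes), with medians of −0.61 for uptake, −0.29 for oxidation and −0.27 for regulators. Without GTx-026 library 1 the uptake median was −0.28 and the oxidation median −0.17, and without GTx-026 library 3 the medians were −0.98, −0.39 and −0.17. This comparison shares the wildtype libraries with the first and does not use the mdx vehicle levels. In GTx-026 libraries 1 to 3, 25, 19 and 10 members lay below all 3 wildtype libraries, beside 26.5%, 28.4% and 27.8% of all genes. Called genes were 1.48% of all genes (227 of 15372), and none was a member; the lowest adjusted p was 0.288, for Ppargc1b. Unadjusted p was under 0.05 for Echs1 and Ppargc1b, both lower, where 5.11% of all genes were lower at that level. With the spread estimated without mdx vehicle library 1 the count was 8 (6.32% of all genes lower, 2.39% called). It was 0 without wildtype library 3 or without GTx-026 library 1 or 2, 1 without wildtype library 2, and 5 without GTx-026 library 3. Acsl1, Cpt2, Echs1, Mlycd and Tfam did not overlap wildtype, beside 9.23% of all genes wholly lower. Echs1 measured 70.1, 83.9 and 93.4 CPM with GTx-026, each under the lowest wildtype value of 110.3 CPM, a log2 difference of −0.51 (SE 0.20, limma adjusted p = 0.331). Eci1, at 67.6, 80.8 and 97.1 CPM, was at −0.61 (SE 0.29). Lpl averaged 356 ± 211 CPM beside 552 ± 51.5 CPM in wildtype (SD, n = 3), −0.87 (SE 0.51), a difference that was −0.23 without GTx-026 library 1 and −1.29 without library 3. Acadm averaged 253 ± 67.6 CPM, −0.34 (SE 0.30). Ppargc1a was level with wildtype, at 17.5, 22.1 and 24.9 CPM and a log2 difference of 0.02 (SE 0.42).

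Members differed in how far libraries of 1 group spread. The within-group SD of log2(CPM + 1) was largest for Plin5 (1.04), Pdk4 (0.941), Ppara (0.902), Fabp3 (0.877) and Ucp3 (0.868), and smallest for Tfam (0.111). By list its median was 0.659 for uptake, 0.394 for oxidation and 0.390 for regulators.

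Other muscle programmes and cell types moved with the libraries. The list median, as a log2 difference from the wildtype mean, was −1.81 for uptake, −1.28 for oxidation and −0.85 for regulators in mdx vehicle library 1. In the same library it was −0.82 for 35 oxidative phosphorylation genes, −0.89 for 18 tricarboxylic acid cycle genes, −0.80 for 10 skeletal muscle markers and −2.90 for 10 slow-fibre contractile genes. Myh7, the slow myosin heavy chain, measured 316, 3912 and 1127 CPM in wildtype libraries, 65.1, 3120 and 2468 CPM in mdx vehicle and 341, 742 and 5873 CPM with GTx-026. Library 1 was thus the lowest of each group for Myh7, as it was for Fabp3, Ppara and Ppargc1a. The same held for the oxidation genes Acadm, Acadl, Acadvl, Hadha, Hadhb, Echs1, Acaa2, Eci1, Decr1, Etfa and Etfdh. The highest library was not always shared. Within wildtype, Myh7 was highest in library 2, but Fabp3, Ppara, Ppargc1a and these oxidation genes were highest in library 3. Within mdx vehicle, Myh7 and all these genes were highest in library 2, and with GTx-026 in library 3. For the remaining members, library 1 was not the lowest of each group. Among these, Cd36, Lpl, Acsl1, Pnpla2, Pdk4 and Ucp3 were lowest within wildtype in library 2. Slow-fibre sums ran from 1235 to 11428 CPM in wildtype, 422 to 9499.6 CPM in mdx vehicle and 1075 to 15101 CPM with GTx-026.

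Fat tissue also expresses Cd36, Lpl, Acsl1 and Pnpla2. Of 12 adipocyte markers 8 were listed and none of these was at 0; Cidec, Lep, Pparg and Adrb3 were not listed. Adipoq measured 104, 3.83 and 2.25 CPM in wildtype libraries, 5.30, 0.472 and 58.8 CPM in mdx vehicle and 7.53, 64.5 and 13.5 CPM with GTx-026. Cd36, Lpl, Acsl1 and Pnpla2 were each highest within wildtype in library 1, which was also the highest for Adipoq. In mdx vehicle, Adipoq, Cd36 and Pnpla2 were highest in library 3, and Lpl and Acsl1 in library 2. With GTx-026, Adipoq and Pnpla2 were highest in library 2, and Cd36, Lpl and Acsl1 in library 3. Summed adipocyte markers, dominated by Car3, which muscle also expresses, ran from 4787 to 5779 CPM in wildtype, 3492 to 5868 CPM in mdx vehicle and 3604 to 5718 CPM with GTx-026. Macrophage markers (13 of 14 listed, Adgre1 not) summed to 60.2 to 157 CPM in wildtype, 163 to 1148 CPM in mdx vehicle and 439 to 698 CPM with GTx-026, and 1 of them, Lgals3, was called in mdx vehicle against wildtype (log2 difference 3.81, limma adjusted p = 0.034; 3.23 and 0.043 without library 1). Endothelial markers (13 of 13), which include the lipoprotein lipase anchor Gpihbp1, summed to 284 to 493, 249.8 to 377 and 265 to 445 CPM. The part of fibre type, fat, infiltrating cells and vessels in the results above was not tested.

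**Figure D4:**
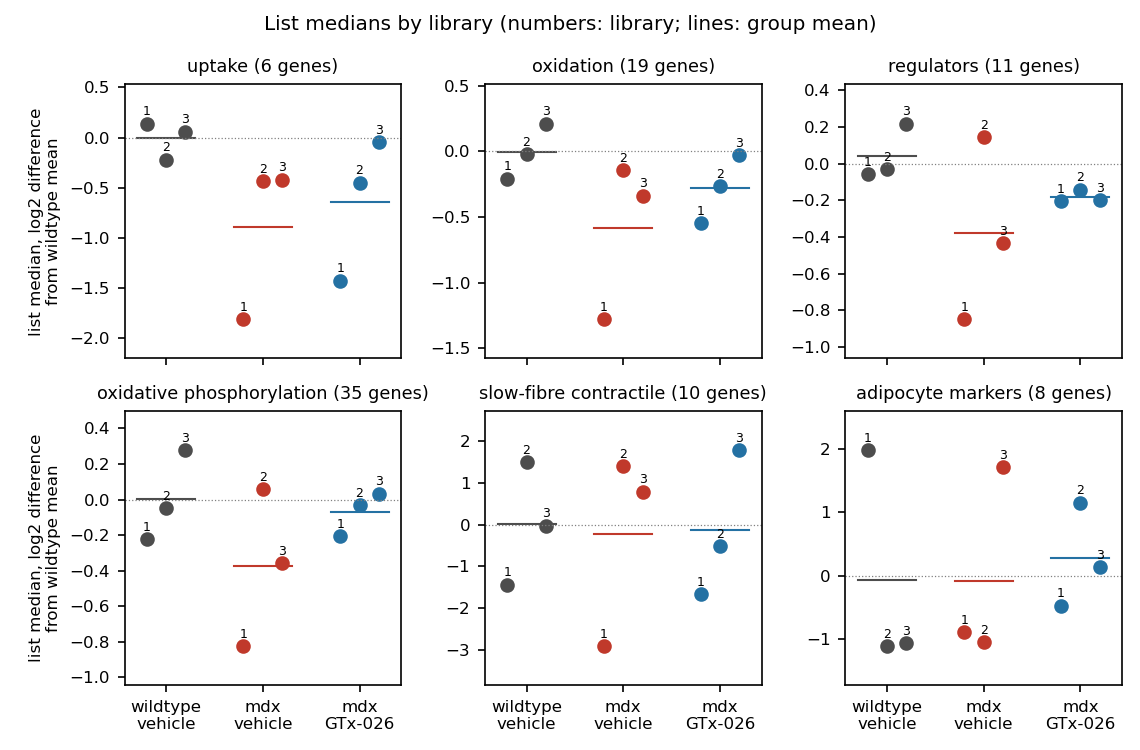
Each point is 1 library (numbered) and shows the median over a list of the log2(CPM + 1) difference from the wildtype mean; horizontal lines are group means and vertical scales differ between panels. Mdx vehicle library 1 is the lowest point in the panels for uptake, oxidation, regulators, oxidative phosphorylation and slow-fibre genes, whereas adipocyte markers are highest in wildtype library 1 and mdx vehicle library 3.

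The rest of the route was read from 3 further lists, none of whose genes was called in any of the comparisons with all 9 libraries. Of all genes, 48.9% were lower in mdx vehicle than in wildtype, and 6.36% were lower at an unadjusted limma p under 0.05. The 20 other uptake and droplet genes were balanced in mdx vehicle against wildtype, 11 lower and 9 higher (median −0.05), with 2 at unadjusted p under 0.05, both lower. These were Slc27a1 (FATP1, a fatty acid transporter), at 127 ± 25.6 and 71.0 ± 24.0 CPM (SD, n = 3; log2 difference −0.87, limma adjusted p = 0.285), and Vldlr, the very-low-density lipoprotein receptor, at 129 ± 7.37 and 91.7 ± 24.9 CPM. Vldlr was higher with GTx-026, at 173, 125 and 199 CPM beside 66.3, 116 and 92.6 CPM with vehicle, without overlap and with a log2 difference of 0.86 (limma adjusted p = 1.00, unadjusted p = 0.0038). By comparison, 3.67% of all genes lay wholly higher with GTx-026. Of 23 other mitochondrial and peroxisomal oxidation genes, 18 were lower in mdx vehicle (median −0.40), among them Acad11, an acyl-CoA dehydrogenase family member, at 65.2 ± 8.31 and 40.4 ± 11.7 CPM (limma adjusted p = 0.239), and Pcca, a propionyl-CoA carboxylase subunit, at 39.8 ± 9.07 and 24.0 ± 6.64 CPM. Of 31 other regulators tested from 34 listed, 22 were lower (median −0.26); Rxrg, a partner receptor of the PPARs, stood at 80.6 ± 18.2 and 44.0 ± 3.72 CPM (limma adjusted p = 0.239) and the coactivator Lpin1 at 223 ± 41.8 and 136 ± 71.8 CPM. In mdx vehicle against wildtype, 8 of the 23 oxidation genes were lower at unadjusted p under 0.05. Of the 31 regulators, 5 were lower and 2 higher at that level, where 974 of all 15372 genes were higher. Between GTx-026 and vehicle the 3 medians were 0.16, 0.05 and 0.04. Without mdx vehicle library 1, 50.5% of all genes were lower in mdx vehicle than in wildtype. The medians against wildtype were then 0.12 (11 higher, 9 lower), −0.19 (16 lower) and −0.20 (22 lower), so that the uptake and droplet list turned direction. Those between GTx-026 and vehicle were then −0.07, −0.15 and 0.01, and the first 2 turned direction. When mdx vehicle library 1 was left out of the fit, GTx-026 muscle fell below wildtype past the threshold for Acad11 (limma adjusted p = 0.033), Acadsb and Klf15 (limma adjusted p = 0.020), 3 genes named after their values were seen. In that fit 2.39% of all genes were called. Klf15, a regulator of lipid use in muscle, measured 53.4, 73.4 and 62.1 CPM in wildtype libraries, 34.9, 56.7 and 64.3 CPM in mdx vehicle and 33.1, 33.5 and 36.8 CPM with GTx-026, and was not called with all 9 libraries (limma adjusted p = 0.111).

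In the authors' deposited table, unadjusted p was under 0.05 in wildtype against mdx vehicle for 2 of the 36 members, Lpl (ratio 1.83, p = 0.028, authors' test) and Acadm (ratio 1.51, p = 0.046, authors' test), both higher in wildtype, beside 6.01% of all records. In the authors' deposited table, 1 member passed that level in some record for wildtype against GTx-026 (9.32% of records) and 1 for mdx vehicle against GTx-026 (1.94% of records).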

How the data were processed

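Gastrocnemius RNA of 9 libraries in 3 groups was compared. The authors deposited 1 table whose 46442 records hold scaled signal per library, group means, ratios of means (fold) and p-values that are not adjusted, per the file headers. In each library the low values of the deposited signal are multiples of 1 step, as reads multiplied by 1 factor would be. A separate check of the reads recovered in this way did not accept the columns, so no count test was run. The submitters' processing notes name build GRCm38.p3 and, with no role, DESeq2 1.6.3, HTSeq 0.6.1p1, TopHat2 2.0.13, SAMtools 0.1.19 and Bowtie2 2.2.4; the annotation and use of strand are not given in the sources used here. Column names give a library's group only, and its number is a name.

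Records were summed by symbol where above 0 in all 9 libraries (15372 of 15593 symbols; 4 records had none). Of the members, 16 had several records, at most 11, so reads may be counted more than once and levels are not compared between genes. CPM came from an unweighted trimmed mean of log ratios (30% and 5% trimmed). limma 3.58.1 (R 4.3.3) tested log2(CPM + 1) in 1 model of all 9 libraries, with a trended prior, 6 residual and 3.54 prior degrees of freedom, two-sided, with Benjamini-Hochberg adjustment. On data simulated for mdx vehicle against wildtype over 15372 genes, it recovered 94 of 100 genes changed by a log2 fold of 1 and 100 of 100 changed by 2, with 7 false calls. The simulation gave genes of like level 1 smoothed spread and set no library apart. Its recovery therefore cannot be carried over to the members. Lpl, for instance, had a log2 difference of −1.08 (SE 0.51) and was not called (limma adjusted p = 0.423).

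Members and lists were chosen with earlier results of these data known, so lists are described by counts and medians. Values per library are given for the 2 members of each list with the largest rise or fall in either mdx comparison and for 6 genes named by role. Of the 3 further pathway lists, called genes are named, or else the 2 with the lowest unadjusted p. Shared reads were gauged by 50-base words of GENCODE vM21 transcripts. Alternatives covered scaling, pseudocount, a filter on low values, the highest record per symbol, the groups in the model, a replicate block and each library left out.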

Additional observations from a re-analysis of the deposited data

How the results depend on the processing

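No member was called in any of the 3 comparisons under any alternative run; the lowest adjusted p by limma was 0.068, in mdx vehicle against wildtype without mdx vehicle library 2. With each library left out in turn, the list medians for mdx vehicle against wildtype ranged from −1.20 to −0.45 for uptake, −0.79 to −0.21 for oxidation and −0.64 to −0.23 for regulators. For GTx-026 against mdx vehicle they ranged from −0.11 to 0.68, −0.06 to 0.49 and −0.17 to 0.50, and for GTx-026 against wildtype from −0.98 to −0.28, −0.39 to −0.17 and −0.30 to −0.17. Relative to library totals, the trimmed mean had shifted mdx vehicle library 1 by −0.38 on the log2 scale, and the others by −0.11 to 0.19. The deposited scaling moved the median of all genes to 0.15 in mdx vehicle against wildtype, where 34 members stayed lower, and left 28 higher with GTx-026. It gave list medians against wildtype of −0.77 for uptake, −0.37 for oxidation and −0.17 for regulators. It left 4 members at an unadjusted limma p under 0.05 there, beside 1746 of all 15372 genes. It turned Ppargc1b in mdx vehicle against wildtype to 0.016 and Ppard with GTx-026 against vehicle to −0.058. Ppard in that comparison was also −0.016 by median of ratios, −0.0051 with a pseudocount of 5 and −0.095 with the highest record only (−0.004373 against wildtype), and Plin5 was 0.0034 with a pseudocount of 0.25. Without both libraries 1 of the mdx groups, chosen after seeing the data, mdx vehicle against wildtype gave 0.05 for Ucp3 and 0.27 for Ppargc1a, and GTx-026 against vehicle gave 0.34 for Cd36, −0.094 for Eci1, −0.26 for Pdk4, −0.12 for Ppargc1a and −0.29 for Ppard. Ranges that crossed 0 with GTx-026 against vehicle with a library left out were −0.55 to 0.35 for Cd36, −0.25 to 0.16 for Echs1, −0.22 to 0.31 for Eci1, −0.21 to 0.84 for Lpl, −0.12 to 1.00 for Pdk4, −0.94 to 0.49 for Plin5, −0.43 to 0.65 for Ppara, −0.30 to 0.20 for Ppard, −0.25 to 0.70 for Ppargc1a, −0.62 to 0.48 for Ucp3. Ranges that crossed 0 with GTx-026 against wildtype with a library left out were −0.16 to 0.21 for Cpt1b, −0.88 to 0.073 for Pdk4, −0.032 to 0.23 for Pnpla2, −0.10 to 0.20 for Ppard, −0.23 to 0.22 for Ppargc1a, −0.84 to 0.27 for Ucp3. Ranges that crossed 0 in mdx vehicle against wildtype with a library left out were −0.15 to 0.36 for Ppard, −0.68 to 0.27 for Ppargc1a, −0.64 to 0.049 for Ucp3. The causes were not tested.

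Calls over all genes in mdx vehicle against wildtype numbered 52, but 5 with the 2 compared groups only and 5 to 93 with a library left out; for GTx-026 against wildtype they numbered 227, 421 and 45 to 368. The number in the column names as a replicate block gave 37 and 178 such calls and no called member, with 17 members at unadjusted p under 0.05 in mdx vehicle against wildtype. Deviations from the group mean correlated at −0.325 to 0.41 between same-numbered libraries and at −0.418 to 0.432 between differently numbered ones. No pairing by number was seen, but these values cannot exclude one. The comparisons rest on 3 libraries a group, 1 of them apart in mdx vehicle, with a within-group SD of up to 1.04 on the log2 scale.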
